A study of Rattus with 6 samples.

Results

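AP-1 and immediate early genes are described here in H9C2 cells, a cell line derived from embryonic rat heart. The 10 genes were taken by symbol from the deposited count table: Fos, Fosl1 and Fosl2 of the Fos family, Jun, Junb and Jund of the Jun family, and Egr1, Ier2, Klf4 and Klf6. All 10 were among the 20742 genes of that table, and all 10 had enough reads to be tested. Polyadenylated RNA was sequenced from cells with a control plasmid (3 libraries) and from cells with a plasmid for RBM25 overexpression (3 libraries). The protein RBM25 binds RNA and acts with the U1 snRNP in splice site choice. Both groups are of 1 cell line and both carry a plasmid. The sources used here do not give the time after plasmid delivery, any selection, the promoter of the plasmid or the cultures of origin. A p-value therefore measures only how these libraries scatter, and that scatter may be technical.

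Immediate early genes are those that a growth factor, serum, stress or depolarisation switches on within minutes, without new protein synthesis. MAP kinases reach their promoters through serum response factor and its cofactors, and the messages are short-lived because AU-rich elements in many of them recruit decay proteins. AP-1 itself is a dimer of basic leucine zipper proteins. Jun proteins can pair with each other or with a Fos protein, whereas Fos proteins need a Jun partner to bind DNA, so the supply of each family sets which dimers can form. In heart cells these genes are widely used as early marks of mechanical load and hypertrophic stimulation.

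The libraries held 25543849 to 33130256 counted reads. Rbm25 was at 49.2, 44.5 and 45.7 CPM (read counts scaled to library size) in the control libraries and at 56.3, 55.9 and 60.1 CPM in the RBM25 libraries, so the groups did not overlap, and its log2 fold change was 0.30 ± 0.047 (edgeR, with its SE; adjusted p = 0.0011). Rbm25l1, an RBM25-like gene, rose from 5 reads over the control libraries to 366 over the RBM25 libraries (edgeR adjusted p = 7.27e-12), and how reads were divided between such similar genes is uncertain. RBM25 replicate 3 stood apart from its group: against replicates 1 and 2 the chi-square of its reads was 5.88 and 4.55 per degree of freedom, where these 2 differed by 3.07 and the control pairs by 3.25 to 3.32. Of 10 skeletal myoblast markers 4 reached a mean of 1 CPM: Casq2 (341 CPM), Myod1 (61.0 CPM), Myog (19.9 CPM) and Des (9.53 CPM). The summed level was 418 to 427 CPM in controls and 438 to 449 CPM with RBM25. Most of it was Casq2, which heart muscle expresses, so this sum does not tell skeletal from heart muscle. Myf6, Chrna1, Tnnt1 and Tnni1 were below 1 CPM, and Myf5 and Pax7 were not listed. Of 10 cardiomyocyte markers 3 reached a mean of 1 CPM: Tnnt2 (107 CPM), Nkx2-5 (15.2 CPM) and Gata4 (11.6 CPM). Myh6, Myh7, Tnni3, Actn2 and Ryr2 were below 1 CPM, and Tbx5 and Nppa were not listed. The cardiomyocyte sums were 128 to 136 CPM in controls and 121 to 164 CPM with RBM25. Of 6 endothelial markers none reached 1 CPM (sums of 0.627 to 0.864 and 0.637 to 0.884 CPM), and of 8 leukocyte markers 2 did, mostly Cd14 (sums of 38.6 to 41.9 and 37.8 to 42.7 CPM). Of 8 fibroblast markers 5 reached 1 CPM, led by Col1a1, while Pdgfra was below it and Dcn and Lum were not listed. The fibroblast sums were 23144 to 25428 and 23409 to 24647 CPM. Only 6 of the myoblast, 4 of the cardiomyocyte, 5 of the fibroblast, 3 of the leukocyte and 1 of the endothelial markers were tested. None of those tested passed. The part of the myoblast sum in the results below was not tested.

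Among Fos and Jun family messages, nearly all were Jund, Junb, Jun, Fosl2 and Fosl1, and the classical early gene Fos was the lowest of the 10 genes. Protein was not measured. Levels between genes are compared on FPKM (fragments scaled to gene length and library size), as mean ± SD over all 6 libraries. Jund, the Jun family member known for steady expression in resting cells, was highest at 71.8 ± 3.22 FPKM, above 94.8% of the 20395 genes with FPKM values. Junb followed at 33.0 ± 1.15 FPKM and Ier2, a small nuclear protein induced by serum, at 24.7 ± 1.38 FPKM. Jun (21.5 ± 0.673 FPKM), Klf6 (19.9 ± 1.92 FPKM) and Fosl2 (18.8 ± 0.602 FPKM) lay close together. The ranges of Jun and Klf6 overlapped, as did those of Klf6 and Fosl2, so the order of these neighbours is not set beyond their spread. Fosl1 had 14.7 ± 1.18 FPKM and Klf4, a zinc finger factor of smooth muscle and stem cell biology, 8.12 ± 0.554 FPKM. Egr1, the zinc finger factor that responds most sharply to serum, was at 1.70 ± 0.189 FPKM, and Fos was lowest at 0.733 ± 0.164 FPKM, above 47.7% of the listed genes. Apart from the overlapping neighbours just named, each gene's lowest library was above the highest library of the next gene.

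Within the Fos family the message was nearly all Fosl2 and Fosl1, which encode the Fra-2 and Fra-1 proteins. Fosl2 made up 55.2 ± 2.38% of summed Fos family FPKM in controls and 53.6 ± 2.81% with RBM25, and Fosl1 41.6 ± 1.81% and 43.4 ± 3.13% (SD, n = 3). Fos contributed 2.33 ± 0.545% and 1.91 ± 0.220%. Fosb, the fourth member of the family and one of a second list of immediate early genes, contributed 0.951 ± 0.150% and 1.05 ± 0.105%. In the Jun family, Jund held 57.6 ± 0.650% of the FPKM in controls and 56.1 ± 1.62% with RBM25, Junb 25.8 ± 0.627% and 26.5 ± 1.26%, and Jun 16.6 ± 0.189% and 17.4 ± 0.891%. Summed Jun family FPKM was 3.72 ± 0.173 times that of the Fos family in controls and 3.60 ± 0.152 times with RBM25. The makeup of both families thus differed between the groups by at most a few percentage points, with no test made of these shares.

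**Figure D1:**
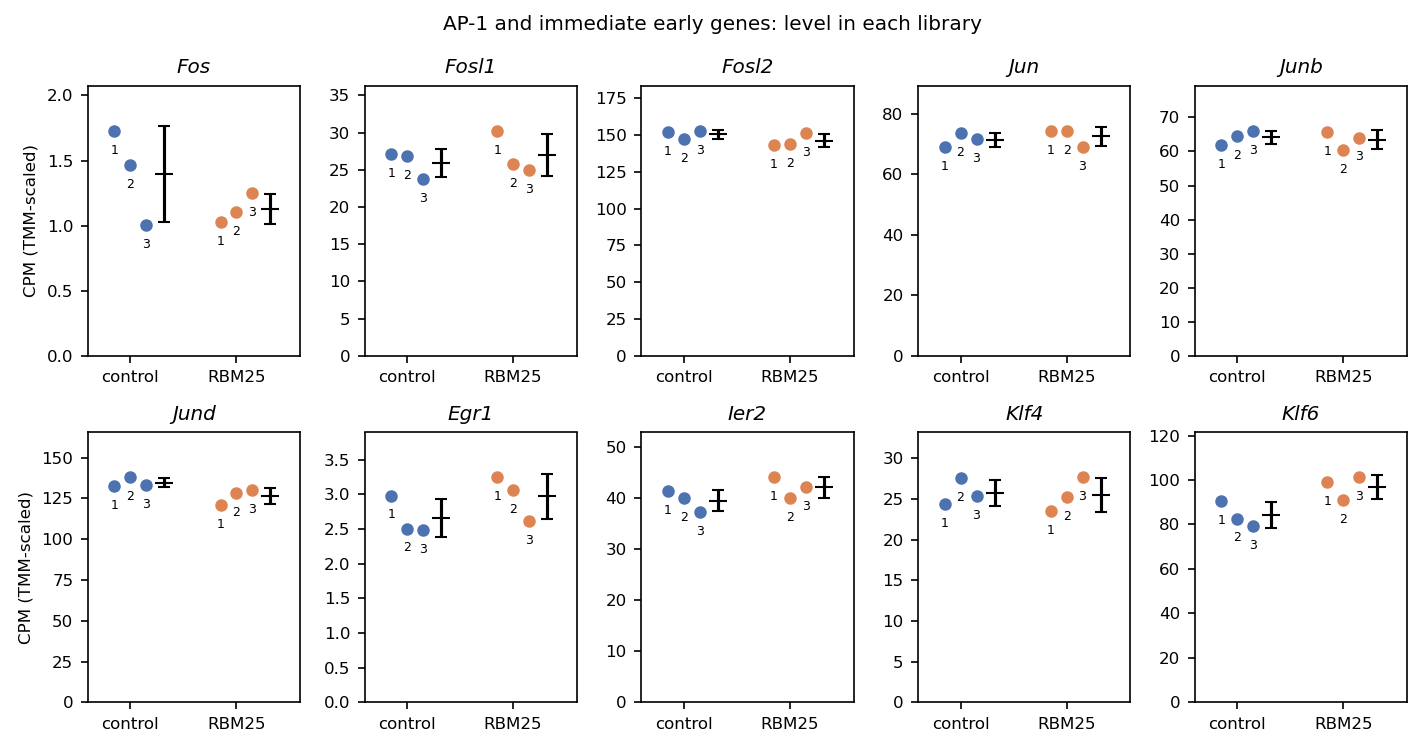
Level of each of the 10 genes in CPM (vertical axes from 0) in the 3 control and 3 RBM25 libraries; points are libraries with their replicate number, and the bar beside them is the mean with its SD. Only Klf6 (RBM25 higher) and Jund (RBM25 lower) show no overlap between the groups, and in both the gap is small beside the level.

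No AP-1 or immediate early gene passed the test for a difference between RBM25 overexpression and control plasmid. With edgeR, 0 of the 10 genes had an adjusted p under 0.05, where 0.404% of the 12882 tested genes did (52 genes, 46 higher and 6 lower). At an unadjusted p under 0.05 there were 2 of 10, Klf6 and Jund, against 11.2% of all tested genes, and DESeq2 also had 0 adjusted and 2 unadjusted. The groups did not overlap for 2 of 10, against 16.2% of all tested genes. Fold changes were positive for 5 of the genes, where 48.8% of all tested genes were positive, and ran from -0.30 to 0.21 on the log2 scale. Their median was 0.0024, beside -0.0021 for all tested genes, and 7 of 10 were under 0.1 in size, as were 68.9% of all tested genes. In a bulk sample, fewer expressing cells and less RNA per cell cannot be told apart.

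The Fos family genes overlapped between the groups. Fos, the partner that forms the classical inducible dimer with Jun, had only 31 to 44 reads per library. Its level was 1.73, 1.46 and 1.00 CPM in control replicates 1, 2 and 3 and 1.03, 1.11 and 1.25 CPM in RBM25 replicates 1, 2 and 3. Control replicates 1 and 2 were the highest libraries and control replicate 3 the lowest, so the RBM25 libraries lay inside the control range. The log2 fold change was -0.30 ± 0.24 (edgeR, with its SE; adjusted p = 0.696), with a 95% interval of the fold from 0.577 to 1.15, and the log2 value moved to -0.50 when control replicate 3 was left out and to -0.12 when control replicate 1 was. That interval holds both a lower and a higher Fos level with RBM25, so these libraries do not settle a direction.

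Fosl1, which lacks the transactivation domain of Fos and is a late-peaking AP-1 member in growth-stimulated cells, was at 27.1, 26.9 and 23.8 CPM in the controls and at 30.2, 25.8 and 25.0 CPM with RBM25. RBM25 replicate 1 was the highest library of all and control replicate 3 the lowest, and of the other 4 both controls were above both RBM25 libraries. The log2 fold change was 0.07 ± 0.071 (edgeR, with its SE; adjusted p = 0.786; interval of the fold 0.944 to 1.16), and without RBM25 replicate 1 it was -0.024. Fosl2, the most abundant Fos family message, kept within 143 to 153 CPM over the 6 libraries. Its log2 fold change of -0.05 ± 0.033 (edgeR, with its SE; adjusted p = 0.640) had an interval of the fold from 0.924 to 1.02.

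Among the Jun family genes, Jund was the one without overlap between the groups. JunD is the family member linked to slower growth and protection from stress in heart cells. Jund was at 133, 138 and 133 CPM in the controls and at 121, 128 and 130 CPM with RBM25, so every RBM25 library was below every control library. The means of 135 ± 2.84 and 127 ± 4.79 CPM (SD, n = 3) differ by -6.00%. The log2 fold change of -0.09 ± 0.034 (SE) did not pass (edgeR adjusted p = 0.296), and an exact two-sided permutation over the libraries gave p = 0.1, which is as low as 3 against 3 can go. Jun and Junb, an activator of growth genes and a partner that often counters it, showed narrow ranges of 68.9 to 74.2 CPM and 60.5 to 66.0 CPM. Their log2 fold changes were 0.02 ± 0.040 and -0.02 ± 0.042 (edgeR, with its SE; adjusted p = 0.893 and 0.923). The intervals of the fold were 0.958 to 1.07 for Jun and 0.931 to 1.05 for Junb. They rest on the scatter of these libraries, which may be technical.

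Klf6, a Krüppel-like zinc finger factor induced by injury and by serum, had the smallest p of the 10 genes. It was at 90.5, 82.7 and 79.1 CPM in control replicates 1, 2 and 3 and at 98.9, 90.9 and 101 CPM in RBM25 replicates 1, 2 and 3. The groups did not overlap, but control replicate 1 and RBM25 replicate 2 almost touched. The mean went from 84.1 ± 5.82 to 97.0 ± 5.39 CPM (SD, n = 3), a difference of 15.3%, and the log2 fold change was 0.21 ± 0.048 (edgeR, with its SE; adjusted p = 0.0706; exact two-sided permutation p = 0.1, the smallest possible). By unadjusted p it was gene 86 of the 12882 tested. Whether it passed depended on single libraries: the edgeR adjusted p was 0.0115 without control replicate 1 (log2 fold change 0.26), 0.0217 without RBM25 replicate 2 (0.25) and 0.0221 without RBM25 replicate 3 (0.18), and 0.487 without control replicate 2 (0.20), 0.278 without control replicate 3 (0.17) and 0.153 without RBM25 replicate 1 (0.19). With no filter on low counts Klf6 passed (edgeR adjusted p = 3.89e-05), where 205 genes were called in all. With the replicate number as a block it also passed (edgeR adjusted p = 1.25e-06), where 436 genes were called. It did not pass with DESeq2 (adjusted p = 0.0635) or in the 3 limma fits on FPKM (adjusted p = 0.407, 0.409 and 0.669). Of 15 alternatives, 5 called Klf6 and 10 did not.

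The other zinc finger and early response genes did not pass. Ier2 was at 41.3, 40.0 and 37.3 CPM in the controls and at 44.1, 40.1 and 42.2 CPM with RBM25. All 3 RBM25 libraries were above the control mean, yet 1 control library was above RBM25 replicate 2, and the log2 fold change was 0.09 ± 0.051 (edgeR, with its SE; adjusted p = 0.513). Egr1 was at 2.98, 2.51 and 2.49 CPM in the controls and at 3.24, 3.06 and 2.61 CPM with RBM25, from 72 to 107 reads per library. Control replicate 1 was higher than RBM25 replicate 3, so the groups overlapped. The log2 fold change of Egr1 was 0.17 ± 0.16 (edgeR, with its SE; adjusted p = 0.741), and its interval of the fold, 0.899 to 1.41, was the widest upward of the 10. Klf4 ran from 23.5 to 27.7 CPM with its lowest and highest library both in the RBM25 group, and its log2 fold change was -0.02 ± 0.065 (edgeR, with its SE; adjusted p = 0.938). The gene model of Klf4 overlaps that of LOC120103069 in RefSeq genes of the GRCr8 assembly. The sources used here do not say whether counting used the strand, so Klf4 counts carry that uncertainty.

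**Figure D2:**
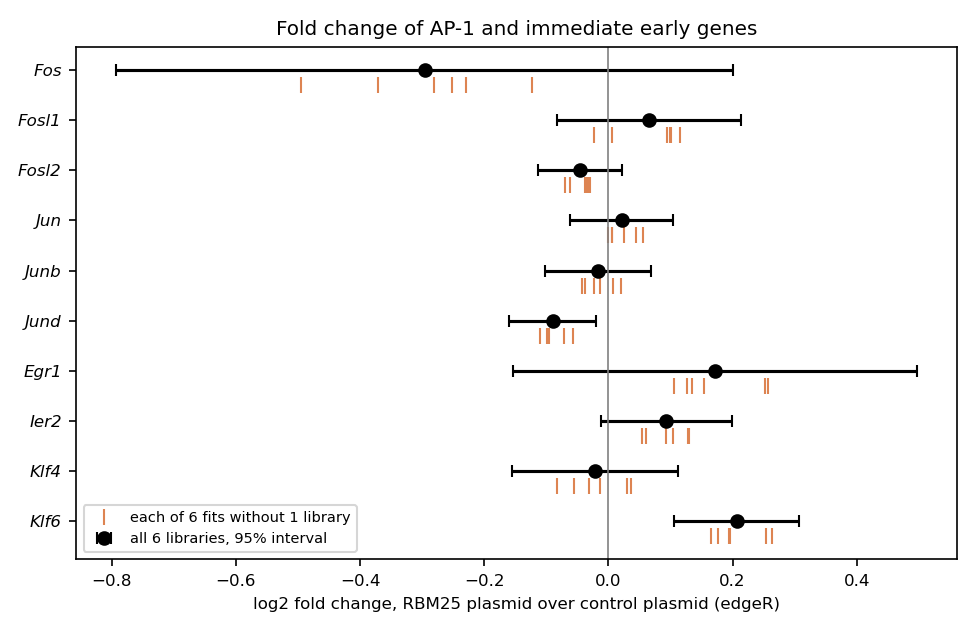
Log2 fold change of each of the 10 genes, RBM25 plasmid over control plasmid, from the edgeR fit of all 6 libraries with its 95% interval (black), and from the 6 fits that each leave out 1 library (orange ticks). The intervals of Klf6 and Jund do not hold 0 before adjustment over all genes, and those of Fos and Egr1, with the fewest reads, are the widest.

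The spread between replicates was not uniformly high for these genes, although early response messages are known to react to handling. The coefficient of variation within groups (pooled over both groups) had a median of 5.63% over the 10 genes, beside 5.32% for all tested genes. For the 10061 tested genes within the range of level of the 10, the median was 5.12%. Each of the 10 was also compared with genes within 2-fold of its level, and all but Egr1 and Fosl2 lay above their median. Klf6 had 6.28%, against a median of 3.07% in 3090 such genes, and was above 94.4% of them. Fosl1 had 8.95%, against 4.64% in 4472 genes, and was above 94.8% of them, and Klf4 had 7.25%, above 85.2%. Klf6 and Fosl1 were thus among the more variable genes at their level, by 2.05 and 1.93 times the median, with no test made. Ier2 (4.97%), Jun (3.80%), Junb (3.77%), Jund (3.07%) and Fos (19.9%) lay between the percentiles 56.6 and 69.5 of their level, and Egr1 (10.7%) and Fosl2 (2.56%) at 36.6 and 41.3. Counting error alone would give 10.9% for Egr1 and 16.5% for Fos, beside measured values of 10.7% and 19.9%. Within the controls Fos varied by 26.3% and within the RBM25 libraries by 9.97%; this difference was not tested.

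**Figure D3:**
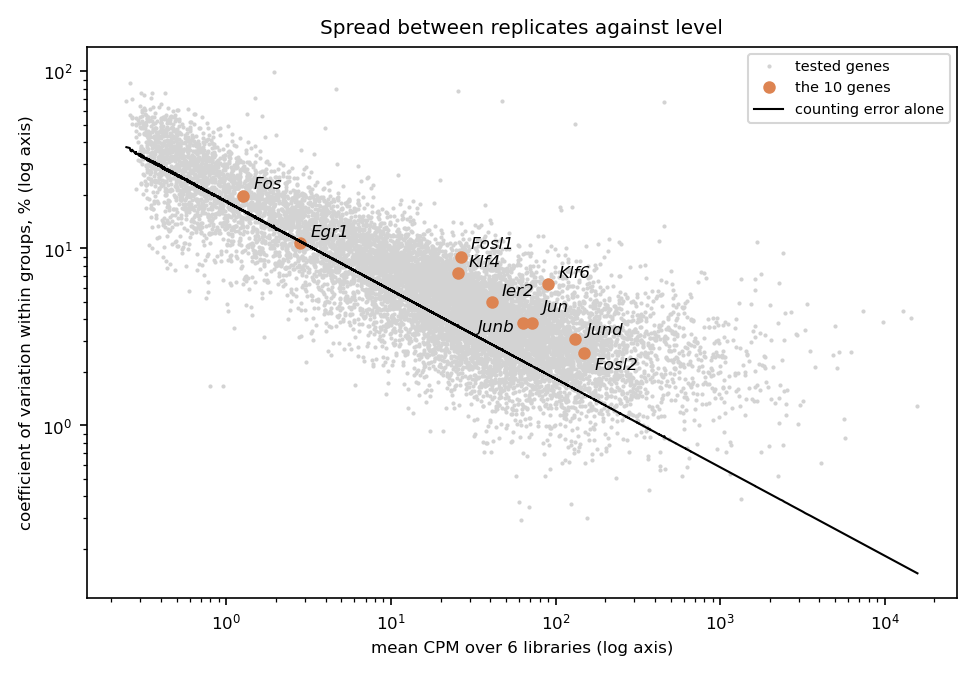
Coefficient of variation within groups (vertical, percent, log axis) against mean CPM over the 6 libraries (horizontal, log axis) for all tested genes with a spread above 0 (grey) and the 10 genes (orange); the line is the spread that counting error alone would give. Fosl1, Klf4 and Klf6 lie high in the cloud for their level, while Egr1 lies on the counting line.

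No library was high or low for all 10 genes. Control replicate 3 was the lowest library for 5 of the 10 (Fos, Fosl1, Egr1, Ier2 and Klf6) and the highest for 2 (Fosl2 and Junb). RBM25 replicate 1 was the highest for 4 (Fosl1, Jun, Egr1 and Ier2) and the lowest for 3 (Fosl2, Jund and Klf4). Measured as log2(CPM + 0.5) against the mean of the group, the deviations reached -0.32 for Fos in control replicate 3 and 0.25 for Fos in control replicate 1, and 0.16 for Fosl1 in RBM25 replicate 1. In control replicate 3, 7 of 10 genes were below their group mean, with a median deviation of -0.048, and in RBM25 replicate 2 also 7 of 10, with -0.020. Control replicate 2 and RBM25 replicate 3 each had 7 of 10 above it, with medians of 0.026 and 0.028. Over all tested genes 49.6 to 51.1% were above the group mean in each library. RBM25 replicate 3, which stood apart over all genes, was the highest library for Klf4 and Klf6 and the lowest for Jun.

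**Figure D4:**
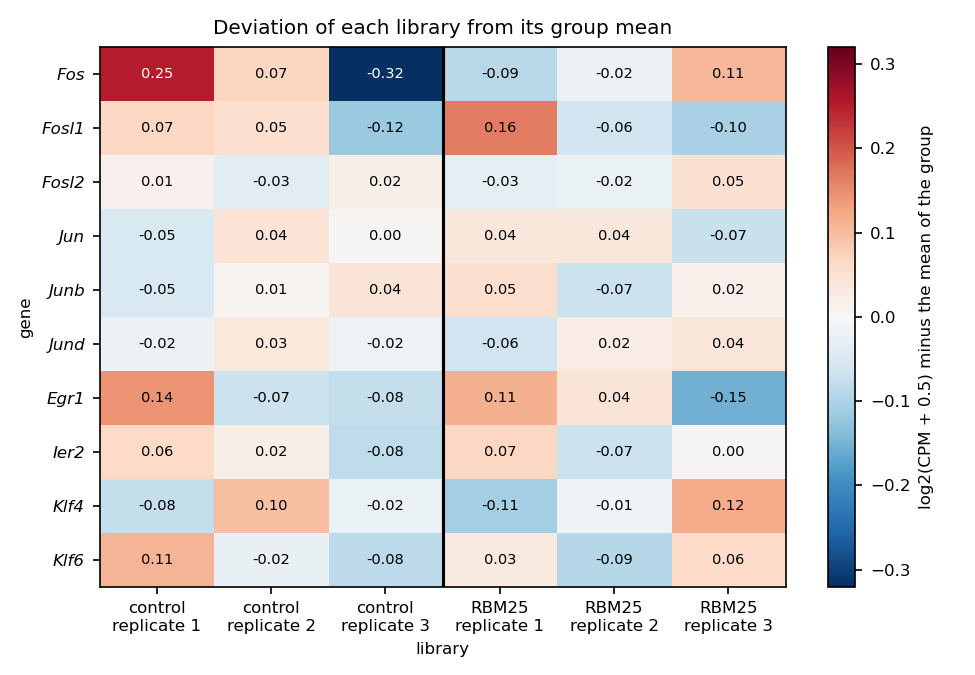
Deviation of each library from the mean of its own group, as log2(CPM + 0.5), for the 10 genes (rows) in the 6 libraries (columns; the black line parts control from RBM25). Fos spans the widest range, from 0.25 in control replicate 1 to -0.32 in control replicate 3, and no library is high or low for all genes.

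Fos had the widest range over the 6 libraries, 0.57 on the log2(CPM + 0.5) scale. By root mean square distance between profiles centred on their own mean over the 6 libraries, the 3 nearest of 10370 genes were Pard3b (0.046), Hipk2 (0.063) and Zfp521 (0.076), where the median gene was at 0.213. For Klf6, whose range was 0.35, they were Tnnc2 (0.021), Zfp445 (0.030) and Mpp5 (0.031), with a median of 0.143. None of these 6 genes passed the edgeR test. With 10370 genes and 6 libraries, some profiles lie close to any given one.

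Upstream and downstream of AP-1, 113 further genes in 8 lists were tested, and 0 passed the edgeR test in either direction. The share over all tested genes was 0.404%. At an unadjusted p under 0.05 there were 4 higher and 4 lower, where 11.2% of all tested genes passed. DESeq2, run on all 127 listed genes of these lists, had 0 adjusted and 5 unadjusted. Positive fold changes were found for 54 of the 113, with a median of -0.0012 on the log2 scale, and 14 had no overlap between the groups. That is a share below the 16.2% of all tested genes. The genes named next as the smallest p of their list follow a rule, and those marked as examples were chosen after their values were seen.

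Of 21 other immediate early genes 11 were positive, and their median log2 fold change was 0.029. The smallest p was that of Rhob, an early-response small GTPase that controls actin, at 647 ± 19.4 CPM in controls and 584 ± 36.9 CPM with RBM25 (SD, n = 3; edgeR log2 fold change -0.15 ± 0.038 SE, adjusted p by edgeR = 0.101). The groups did not overlap for Rhob, and without RBM25 replicate 3 it passed (-0.19, adjusted p = 1.96e-05), as it did with no filter on low counts (-0.15, adjusted p = 8.89e-04). As examples, the matricellular genes Ccn1 and Ccn2 were at 329 ± 24.6 and 365 ± 31.7 CPM and at 1284 ± 88.8 and 1392 ± 91.2 CPM, with edgeR adjusted p of 0.571 and 0.590. Fosb had 33 to 43 reads per library, and its 0.347 FPKM on average lay below the 0.733 FPKM of Fos. Egr2 had 0 to 6 reads and Egr3 3 to 11 reads per library, too few to be tested.

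The signalling side gave the same count of 0. Among 29 genes of the MAP kinase cascade, from Ras to the kinases that act on early gene promoters, Braf had the smallest p. Braf, a kinase at the top of the cascade, was at 15.4 ± 0.420 and 18.1 ± 2.21 CPM, without overlap between the groups. Its log2 fold change was 0.23 ± 0.079 (edgeR, with its SE, adjusted p = 0.240). Without 1 library it ran from 0.13 (RBM25 replicate 3 left out) to 0.31 (RBM25 replicate 1 left out). The median of that list was 0.0039 with 16 positive. Of 13 feedback inhibitors, several of which are themselves induced by the cascade, 7 were positive. Dusp10, a phosphatase of stress-activated kinases, had the smallest p, without overlap between the groups (5.54 ± 0.224 and 4.91 ± 0.214 CPM). Its log2 fold change was -0.17 ± 0.11 (edgeR, with its SE, adjusted p = 0.609). Serum response factor, the shared activator of Fos and Egr1, had the smallest p of 7 genes for SRF and its cofactors, of which 2 were positive and the median was -0.065. Srf was at 91.5 ± 1.82 CPM in controls and 86.3 ± 4.27 CPM with RBM25, with overlap (-0.08 ± 0.039 SE, adjusted p by edgeR = 0.412). Without 1 library its log2 fold change ran from -0.12 (RBM25 replicate 1 left out) to -0.054 (RBM25 replicate 2 left out).

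Among 12 other basic leucine zipper genes that can pair with AP-1 proteins or share their sites, 2 were positive and the median was -0.018. Creb1, the factor that binds cyclic AMP response elements, had the smallest p (11.7 ± 1.75 and 13.5 ± 0.573 CPM). Its log2 fold change was 0.20 ± 0.091 (edgeR, with its SE, adjusted p = 0.393). Without 1 library it ran from 0.083 (control replicate 2 left out) to 0.28 (control replicate 3 left out). Of 12 known AP-1 target genes 7 were positive, with a median of 0.039. Ezr, which links the membrane to actin, had the smallest p (118 ± 2.18 and 114 ± 2.59 CPM; -0.05 ± 0.034 SE, adjusted p by edgeR = 0.616). As examples, cyclin D1 (Ccnd1) was at 651 ± 30.0 and 671 ± 40.2 CPM and Timp1, an inhibitor of matrix proteases, at 193 ± 2.09 and 200 ± 14.4 CPM.

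The relatives of Klf4 and Klf6 and the proteins that bind AU-rich elements completed the lists. Of 11 other KLF genes 4 were positive and the median was -0.034. Klf15, a metabolic regulator of heart and muscle, had the smallest p (8.41 ± 0.978 and 6.97 ± 1.52 CPM; edgeR log2 fold change -0.29 ± 0.13 SE, adjusted p by edgeR = 0.414) and passed without RBM25 replicate 3 (-0.47, adjusted p = 0.0088). Of 8 proteins that bind AU-rich elements 5 were positive, with a median of 0.029. Tial1, which also takes part in splice site choice beside U1, had the smallest p and no overlap between the groups (102 ± 1.55 and 109 ± 2.91 CPM; 0.10 ± 0.034 SE, adjusted p by edgeR = 0.217).

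**Figure D5:**
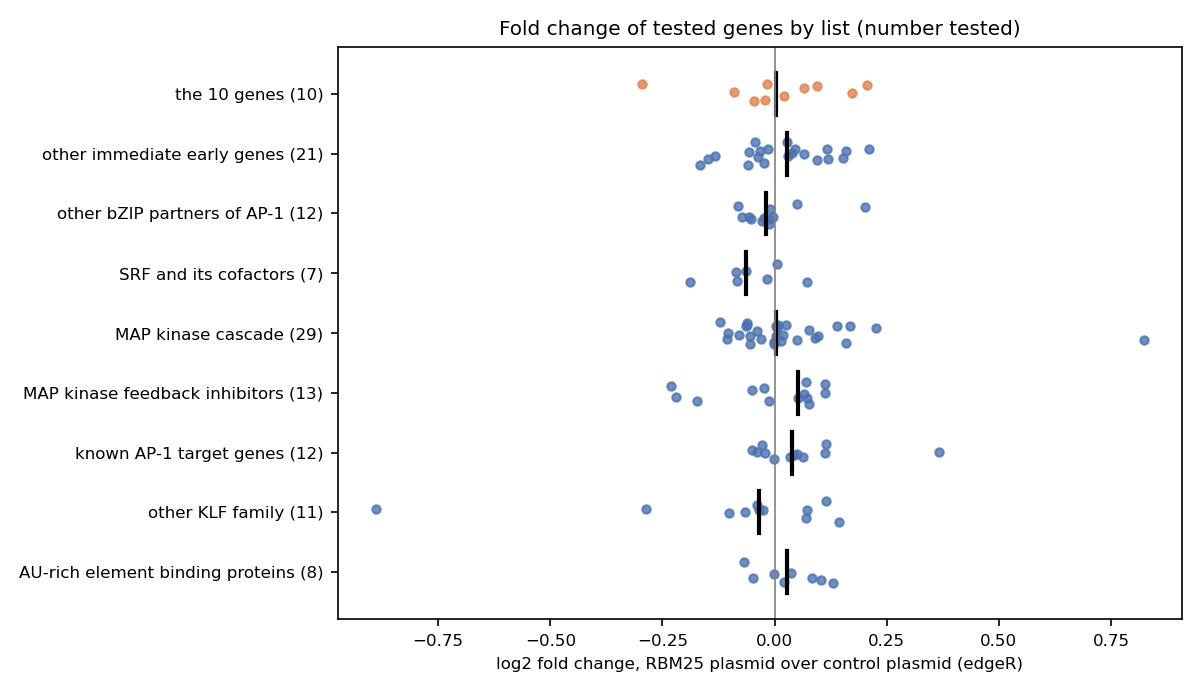
Log2 fold change, RBM25 plasmid over control plasmid, of the 10 genes (orange) and of the tested genes of 8 further lists (blue), with the number tested in brackets and the median as a black bar. The medians lie between -0.065 and 0.052, and the points farthest from 0, Klf13 (-0.89) and Mapk12 (0.82), had at most 14 reads in any library.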

How the data were processed

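Per the labels' protocols, DNase-treated total RNA was captured on poly(A) beads and made into strand-marked libraries, sequenced as read pairs. The submitters' processing notes name HISAT2, DESeq2 and the build mRatBN7.2; for the counting program, the annotation and all versions, nothing is stated in the sources used here. Counts were deposited as whole numbers of reads for each gene, with no normalization. The deposited FPKM values were made by the authors and rounded to 2 decimals.

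The test was edgeR 4.0.16, run in R 4.3.3: filterByExpr (minimum count 10) left 12882 genes, libraries were scaled by TMM, and the quasi-likelihood F-test (robust, design of group alone) gave Benjamini-Hochberg adjusted p, with a threshold of 0.05. The SE is the log2 fold change divided by the square root of F. The same fit was tested on simulated data. CPM are TMM-scaled. DESeq2 1.42.0 and limma 3.58.1 on log2(FPKM + 1) or log2(FPKM + 0.1) were alternatives.

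The 10 genes and all lists were chosen with earlier results of these data known, so no p is given for a list. Named genes were the 10, Rbm25, of each list up to 3 called genes or else the gene with the smallest p, and the 3 nearest profiles. Of 140 further symbols 127 were listed and 113 tested; synonyms were not used. No coordinates are given, since the gene table at hand is of another assembly. Depth per library is in the results, and no pair of replicates agreed within sampling noise.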

Additional observations from a re-analysis of the deposited data

How the results depend on the processing

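Over 15 alternatives for each of the 10 genes, 145 of 150 fold changes kept their sign, and Klf6 was the only one of the 10 called under any of them, in 5 of 15. The 5 of opposite sign were Fosl1 without RBM25 replicate 1 (-0.024), Junb without control replicate 3 (0.0070) and without RBM25 replicate 2 (0.020), and Klf4 without control replicate 2 (0.030) and without RBM25 replicate 1 (0.036), none of which passed in either fit; without 1 library the fold changes ran from -0.024 to 0.12 for Fosl1, from -0.042 to 0.020 for Junb and from -0.082 to 0.036 for Klf4. The number of the 10 genes called, 0 as reported, was 1 with no filter on low counts and 0 to 1 without 1 library. Over all genes 52 were called as reported, 205 with no filter on low counts, 2 with limma on log2(FPKM + 1), 3 on log2(FPKM + 0.1), 6 with no filter on FPKM, and 5 to 352 without 1 library, the extremes being control replicate 2 and RBM25 replicate 3; leaving out control replicate 3 gave 21. Of the further lists, 0 were called as reported, 2 with no filter on low counts (Ccn2 and Rhob) and 0 to 3 without 1 library (Rhob, Klf15 and Nfe2l1 without RBM25 replicate 3). The cause of these moves was not tested. The Rbm25 call was lost with the 3 limma fits on FPKM (log2 fold changes of 0.28, 0.30 and 0.28, adjusted p = 0.239, 0.211 and 0.570) and without control replicate 2 (0.28, adjusted p = 0.0842), with a size close to the 0.30 reported. With the replicate number as a block, 1 of the 10 genes was called (Klf6), 7 genes of the further lists and 436 of all genes. The correlation of deviations from the group means between libraries of the same number was 0.10, -0.084 and 0.010. Only control replicate 1 and RBM25 replicate 1 correlated best with their own number. With so few libraries these values cannot decide whether the numbers pair the samples, and the labels do not say. For Fos and Egr1 the read depth limits what can be seen.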
